A study of Mus musculus with 27 samples.

Results

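The 10 messenger RNAs (mRNAs) described here are encoded by the mitochondrial chromosome and were chosen as listed genes: mt-Co1, mt-Co2, mt-Co3, mt-Cytb, mt-Nd1, mt-Nd2, mt-Nd4, mt-Nd5, mt-Nd6 and mt-Atp6. They are 10 of the 13 mRNA genes and of the 37 annotated genes of that chromosome, among 37991 genes quantified in each profile. All 10 were measured in all 27 profiles. They were followed through 9 time points of osteoblast differentiation in culture, from day 2 to day 18 at intervals of 2 days. The cells of every time point came from the calvariae (skull vaults) of neonatal C57BL/6J-Col3.6 CFP mice aged 5 to 9 days, which express cyan fluorescent protein (CFP) under a fragment of a type I collagen promoter. After 4 days of culture, CFP-positive cells were collected by flow sorting, and all of them then received ascorbic acid and beta-glycerol phosphate. There was no untreated arm, so each time point was compared with the other time points. The Col3.6 fragment drives CFP in cells of the osteoblast lineage from an early stage, and the sort preceded the time course. How many mice were pooled is not given in the sources used here.

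Each time point had 3 profiles, whose deposited file names carried 1 barcode and 3 sequencing lanes. The study's methods describe them as triplicate samples. Because of the shared barcode they were summed here and counted as 1 library, and on this reading no time point has a replicate culture. The p-values below therefore measure the scatter of 9 libraries around a line in day, and an SD over the lanes reflects only the sequencing and counting of that library. The summed libraries held 22470195 to 62009157 estimated counts, so 3 counts, the least taken as detected, came to 0.0484 to 0.134 CPM (counts scaled to a library total of 1000000). Every profile held at least 1537 counts for each of the 10 mRNAs. Their differences between lanes were within counting noise (chi-square per degree of freedom of 0.699 to 1.46, p from 0.0922 to 0.816, chi-square tests on counts), and the coefficient of variation over lanes was at most 2.79%.

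Mitochondrial DNA encodes core subunits of the respiratory chain and of ATP synthase, and 2 ribosomal RNAs (rRNAs) and a set of transfer RNAs (tRNAs) used to translate them. Both strands are transcribed as long precursors, which are cut at the tRNAs that lie between most of the coding sequences. Most of the mRNAs are then polyadenylated. All other subunits of the chain, and the polymerase, RNA-binding proteins and translation factors that act on these mRNAs, are made from nuclear genes. Mitochondrial respiration is known to change as osteoblast precursors mature.

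In NCBIM37 the mitochondrial chromosome (chrM) has 16299 bases, and the 10 genes cover 519 bases (mt-Nd6) to 1824 bases (mt-Nd5) each, with a GC content of 34.1% to 39.9%. The genes have no introns and almost no untranslated sequence, so each annotated gene is a coding exon. Of the 10, 9 lie on the plus strand. From the start of the map these are mt-Nd1 (2751 to 3707), mt-Nd2 (3914 to 4951), mt-Co1 (5328 to 6872), mt-Co2 (7013 to 7696), mt-Atp6 (7927 to 8607), mt-Co3 (8607 to 9390), mt-Nd4 (10167 to 11544), mt-Nd5 (11742 to 13565) and mt-Cytb (14145 to 15288). mt-Nd6 (13552 to 14070) is the 1 gene of the 10 on the minus strand. Its mRNA had 28.1% G and 5.97% C, the reverse of the skew in the other 9, in which C exceeded G. Their Ensembl identifiers are ENSMUSG00000064351 for mt-Co1, ENSMUSG00000064354 for mt-Co2, ENSMUSG00000064358 for mt-Co3, ENSMUSG00000064370 for mt-Cytb, ENSMUSG00000064341 for mt-Nd1, ENSMUSG00000064345 for mt-Nd2, ENSMUSG00000064363 for mt-Nd4, ENSMUSG00000064367 for mt-Nd5, ENSMUSG00000064368 for mt-Nd6 and ENSMUSG00000064357 for mt-Atp6.

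The ends of these mRNAs show how they differ from nuclear transcripts. Of the 10, 7 open with ATG. The first 21 bases of the 3 that do not are shown here from the NCBIM37 genome, with the start codon in capitals.
mt-Nd1: GTGttctttattaatatccta
mt-Nd2: ATAaatcctatcacccttgcc
mt-Nd5: ATCaatattttcacaacctca

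For 3 of the 10 the annotated sequence stops at the T of an unfinished stop codon, whose missing A bases polyadenylation is known to supply. The last 21 bases of these 3 are followed here by those of mt-Co1, which ends in a complete codon, with the stop in capitals.
mt-Co3: ccatttattgatgaggatctT
mt-Nd4: taattacaggcctgacaataT
mt-Cytb: aaatactaaaattatatccaT
mt-Co1: acctatgtaaaagtaaaaTAA

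Neighbouring genes share bases in 4 places, where a read cannot be given to 1 gene by position alone. mt-Atp8 and mt-Atp6, which are carried by 1 mRNA in the cell, share 43 bases (chrM:7927-7969). mt-Atp6 and mt-Co3 share 1 base and mt-Nd4l and mt-Nd4 share 7. mt-Nd5 and mt-Nd6 share 14 bases on opposite strands (chrM:13552-13565). The shared stretches are printed on the plus strand, since they are the parts of the members that counting may divide, with the start codon of mt-Atp6 being the first 3 bases of the longer one.
mt-Atp8 and mt-Atp6: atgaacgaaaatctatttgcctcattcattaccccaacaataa
mt-Nd5 and mt-Nd6: ttaatctcgagtaa
Strand-aware counting is not stated in the sources used here, so reads of mt-Nd6 cannot be told apart from reads of plus-strand precursor RNA across the same bases, nor can reads of the other mRNAs from those of minus-strand RNA.

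A 4031-base stretch of nuclear chromosome 1 (24618374 to 24622404 in NCBIM37) is a copy of the mitochondrial genes from mt-Co2 to mt-Nd4. In a BLAST search it was identical to the whole of mt-Co2, mt-Atp6 and mt-Co3 and to 876 of the 1378 bases of mt-Nd4. A nuclear protein-coding gene model, Gm10925 (ENSMUSG00000090378, chr1:24620814-24621627, minus strand), lies over the mt-Atp6 part. It also lies over most of the mt-Atp8 part (24621448 to 24621651), which is identical as well. It was assigned 143469 counts over the 27 profiles, beside 235944 for mt-Atp6. Gm10925 took 37.1% to 39.7% of the sum of both on every day, so the division was nearly the same throughout. The 43 bases printed for mt-Atp8 and mt-Atp6 lie inside the span of Gm10925 too. Its length in the quantification, 772 bases, is shorter than that span, and whether its transcript holds these 43 bases was not tested. Values of mt-Atp6 are therefore those that remained after a division between identical sequences, and its level is uncertain. Gm10925 can also hold reads of mt-Atp8, so how many of its counts belong to mt-Atp6 is not known.

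The other members shared few counts with the nuclear copies that were kept, and no copy of mt-Nd1 was among these. No annotated gene lay over the chromosome 1 copies of mt-Co2 and mt-Co3. The most similar one of mt-Co1, the pseudogene Gm13340 on chromosome 2 at 97.6% identity, held 1373 counts against 3490401 for mt-Co1. Counts that were not whole numbers, which mark shared reads, were found for mt-Co1 and mt-Atp6 in 27 of 27 profiles, for mt-Co2 in 25 and for mt-Nd5 in 1. The remaining 6 members had whole counts in every profile.

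Per base of transcript, the members were among the most abundant RNAs of these cells. Levels between genes were compared as TPM (counts per transcript length, with the same total) after each profile was scaled to the 75th percentile of its values above 0. On this scale the 10 ranked from 4 to 150 among all genes by their mean over the 9 days. mt-Co1, the catalytic core of cytochrome c oxidase (complex IV), averaged 11225 ± 1735 TPM (SD over 9 days). mt-Cytb, the cytochrome b of complex III, followed with 4021 ± 905 TPM.

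The level of mt-Nd4, a proton-pumping subunit of NADH dehydrogenase (complex I), averaged 2574 ± 531 TPM. mt-Atp6, the proton channel subunit of ATP synthase (complex V), averaged 2362 ± 577 TPM, with a further 1174 TPM given to Gm10925. mt-Nd5, another proton-pumping subunit of complex I, averaged 2290 ± 386 TPM. These 3 levels lay close together. mt-Co2, the complex IV subunit that receives electrons from cytochrome c, averaged 2095 ± 295 TPM, and mt-Co3, the third core subunit of that complex, 1926 ± 442 TPM. mt-Nd1, a complex I subunit near the quinone site, averaged 1811 ± 401 TPM, mt-Nd6 1224 ± 260 TPM and mt-Nd2 650 ± 146 TPM, both also subunits of the membrane arm of complex I.

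Taken pair by pair in this order, mt-Co1 was above mt-Cytb, mt-Cytb above mt-Nd4, mt-Nd1 above mt-Nd6 and mt-Nd6 above mt-Nd2 on 9 of 9 days. The middle of the order was less fixed. mt-Nd4 was above mt-Atp6 on 8 of 9 days, by 0.14 ± 0.11 log2 units of TPM (mean and SD over days). This holds for the counts left to mt-Atp6 after the division. The 1174 TPM of Gm10925, if all of it belonged to mt-Atp6, would turn the order. The log2 difference was smaller than its SD over days between mt-Atp6 and mt-Nd5 (0.02 ± 0.17, higher on 5 of 9 days), mt-Nd5 and mt-Co2 (0.12 ± 0.15, 8 of 9), mt-Co2 and mt-Co3 (0.14 ± 0.18, 8 of 9) and mt-Co3 and mt-Nd1 (0.08 ± 0.13, 6 of 9). By this measure, whose SD includes change along the days, those neighbours were not separated.

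**Figure D1:**
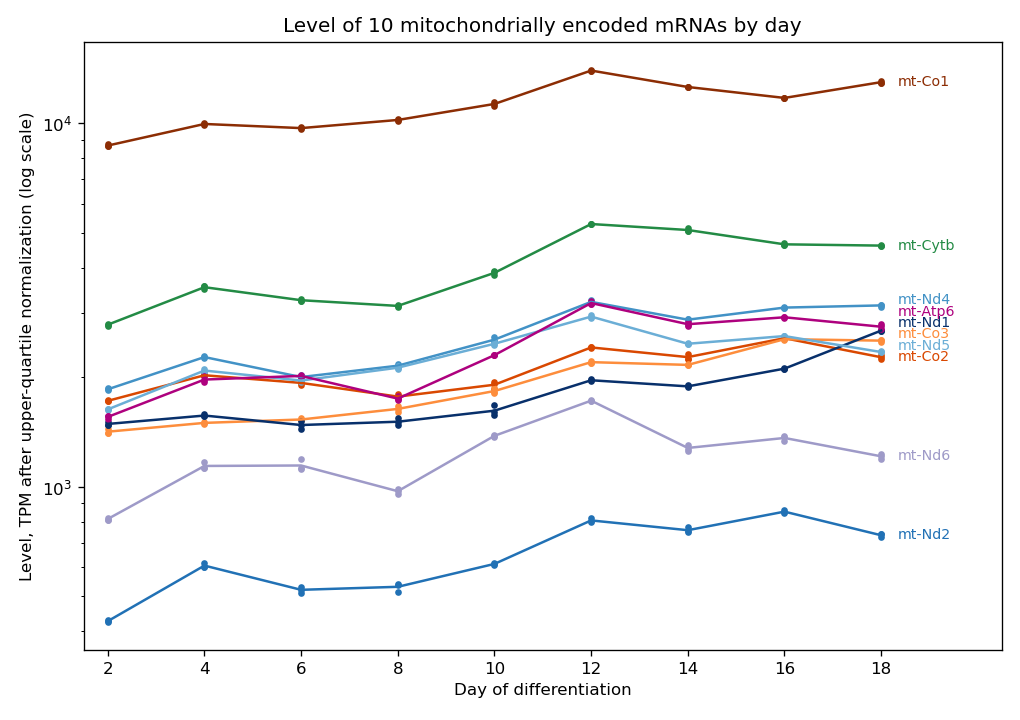
Level of each of the 10 mRNAs (TPM after upper-quartile normalization, log axis) against day of differentiation. Points are the 3 lane profiles of a time point and lines join their means. mt-Co1 lies above the rest on every day and mt-Nd2 below, while 6 of the mRNAs run close together and mt-Nd1 climbs among them on day 18.

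Together the 10 mRNAs took 1.48% of all estimated counts on day 2. The shares of days 4 to 10 were 1.70%, 1.65%, 1.74% and 1.94%, and those of days 12 to 18 were 2.08%, 2.02%, 1.95% and 2.02%. The lowest share was on day 2 and the highest on day 12, which was 1.41 times as high. All 3 late days (14 to 18, mean 2.00%) were above all 3 early days (2 to 6, mean 1.61%). The SD over the 3 profiles was at most 0.00465 percentage points, and 95% Wilson intervals, which cover counting error only, ran from 1.477% to 1.484% on day 2 and from 2.079% to 2.086% on day 12.

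The rRNAs mt-Rnr1 and mt-Rnr2 of the mitochondrial ribosome took 21.4% (day 2) to 25.7% (day 12) of all counts, so the total was also formed without them. The members' share then went from 1.88% on day 2 through 2.18%, 2.11%, 2.26% and 2.56% on days 4 to 10 to 2.80% on day 12, and was 2.61%, 2.58% and 2.69% on days 14 to 18. The order of early and late days was the same, and day 12 was 1.49 times day 2. For each count of the 10 mRNAs there were 14.5 rRNA counts on day 2 and 11.2 on day 14, the highest and lowest of the 9 days. The 22 mitochondrial tRNA genes, 59 to 75 bases long, had no counts.

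**Figure D2:**
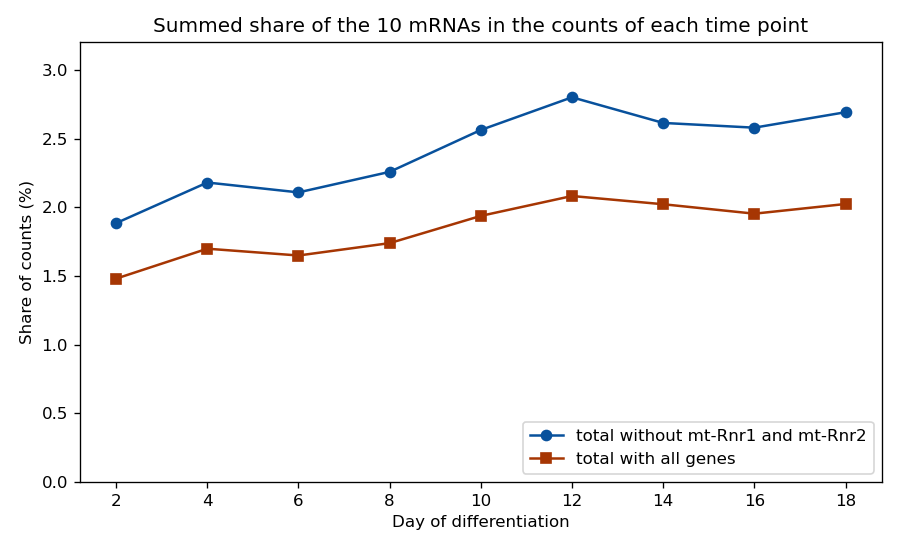
Summed share of the 10 mRNAs in the estimated counts of each time point (%), with all genes in the total (squares) and without mt-Rnr1 and mt-Rnr2 (circles), against day of differentiation. Both shares are lowest on day 2 and highest on day 12. Error bars are the SD over 3 profiles, which is at most 0.0075 percentage points and smaller than the symbols.

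A line in day was fitted to the 9 libraries for all genes by edgeR's quasi-likelihood test with upper-quartile factors, with Benjamini-Hochberg adjustment over the 15659 genes that passed a filter on low counts. All 10 mRNAs passed the filter. The slope is given as the fitted log2 change over the 16 days from day 2 to day 18. With an adjusted p under 0.05 taken as a call, 9 of the 10 rose, none fell and mt-Nd6 was not called. Of all genes tested, 28.3% rose and 26.1% fell, 54.3% in all. The fitted log2 changes of the 10 had a median of 0.69, against 0.05 for all genes tested, and ranged from 0.37 to 0.84. A natural spline with 3 degrees of freedom, which also finds changes that turn back, called 10 of 10, against 57.5% of the 16256 genes tested.

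The complex IV mRNAs held the largest and the smallest slope of the 10. The level of mt-Co3 by day was 492, 503, 523, 571, 623, 642, 677, 780 and 770 CPM. It was higher on each later day than on the one before until day 16, and its late days lay well above its early days. The fitted log2 change was 0.84 with an SE of 0.11 (edgeR, Benjamini-Hochberg adjusted p = 0.000147).

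The level of mt-Co1 was 7560, 8377, 8311, 8922, 9628, 10206, 9876, 9012 and 9932 CPM. Day 2 was lowest, day 12 highest, and day 16 lay between the values of days 8 and 10. Its log2 change was 0.47 with an SE of 0.15 (edgeR, adjusted p = 0.0209). The level of mt-Co2 was 480, 545, 529, 495, 520, 565, 571, 629 and 556 CPM, with a log2 change of 0.37 and an SE of 0.12 (edgeR, adjusted p = 0.0227). Day 18 was close to day 4 in CPM, and the slope was the smallest of the 10.

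mt-Cytb, the complex III member, was at 1660, 2035, 1908, 1877, 2256, 2637, 2727, 2436 and 2409 CPM. A step lay between day 8 and day 12, and days 10 to 18 were all above days 2 to 8. The log2 change was 0.72 with an SE of 0.18 (edgeR, adjusted p = 0.0058). mt-Atp6, the complex V member, was at 430, 527, 549, 485, 623, 743, 698, 713 and 670 CPM and also stepped up after day 8. Its log2 change was 0.82 with an SE of 0.18 (edgeR, adjusted p = 0.00276). With the counts of Gm10925 added it was 0.78, so the direction did not depend on how the identical reads were divided.

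Among the 5 complex I mRNAs, mt-Nd4 was at 1401, 1660, 1490, 1632, 1878, 2046, 1963, 2073 and 2095 CPM, with days 10 to 18 above days 2 to 8. Its log2 change was 0.71 with an SE of 0.14 (edgeR, adjusted p = 0.00192). mt-Nd2 was at 223, 306, 267, 278, 313, 354, 357, 393 and 337 CPM, again with the last 5 days above the first 4. Its log2 change was 0.74 with an SE of 0.16 (edgeR, adjusted p = 0.00288).

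mt-Nd1 had a course of its own shape. It was at 694, 707, 678, 706, 738, 768, 794, 868 and 1102 CPM, nearly level until day 8 and highest on day 18 by a wide step. Its lowest value was on day 6, while the other 9 members were lowest on day 2 in CPM. The log2 change was 0.68 with an SE of 0.15 (edgeR, adjusted p = 0.00271), and 0.47 (adjusted p = 0.0170) without day 18.

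mt-Nd5 was at 1734, 2143, 2049, 2266, 2571, 2620, 2369, 2432 and 2192 CPM. It climbed to day 12 and was lower on all 3 days after it, with day 18 between days 4 and 8. The log2 change was 0.46 with an SE of 0.18 (edgeR, adjusted p = 0.0445). mt-Nd6, its neighbour on the opposite strand, was at 135, 182, 186, 161, 223, 239, 190, 198 and 176 CPM, with days 10 and 12 above the rest and day 18 below days 4 and 6. Its log2 change over the whole course was 0.47 with an SE of 0.23 (edgeR, adjusted p = 0.1135). It was 0.25 (adjusted p = 0.441) without day 2 and 0.68 (adjusted p = 0.0494) without day 18. The spline called mt-Nd6 with an adjusted p of 0.0249 (edgeR) and mt-Nd5 with 0.0032.

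Early and late days were also set side by side on CPM with upper-quartile factors. All 3 late days were above all 3 early days for 10 of the 10 mRNAs, as they were for 32.6% of the genes tested. For mt-Co3 the early days ran from 486 to 492 and the late days from 689 to 807 on this scale. The gap was narrowest in relative terms for mt-Nd6, whose early days reached 177 and whose late days began at 184. The highest day in CPM without a factor was day 12 for 4 members, day 14 for 1, day 16 for 3 and day 18 for 2.

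The slopes depended on the scaling, since upper-quartile factors raised the median log2 change of all genes by 0.12 over that with total counts. With total counts and no factor, all 10 log2 changes stayed above 0 and 6 were called rising, against 24.3% of all genes. mt-Co1, mt-Co2 and mt-Nd5 then lost their calls, with adjusted p (edgeR) of 0.0544, 0.0876 and 0.1135. With total counts without the rRNAs, 8 were called, against 26% of all genes. The calls of mt-Co1 and mt-Co2 were also lost when day 2 was left out (log2 changes of 0.43 and 0.37, adjusted p of 0.0527 and 0.0634), and that of mt-Co2 without day 16 (0.31, adjusted p of 0.0695). The call of mt-Nd5 was lost when any of days 2, 4, 6, 8, 12, 14 and 16 was left out (adjusted p of 0.055 without day 12 to 0.192 without day 2) and with TMM factors (adjusted p of 0.0513).

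**Figure D3:**
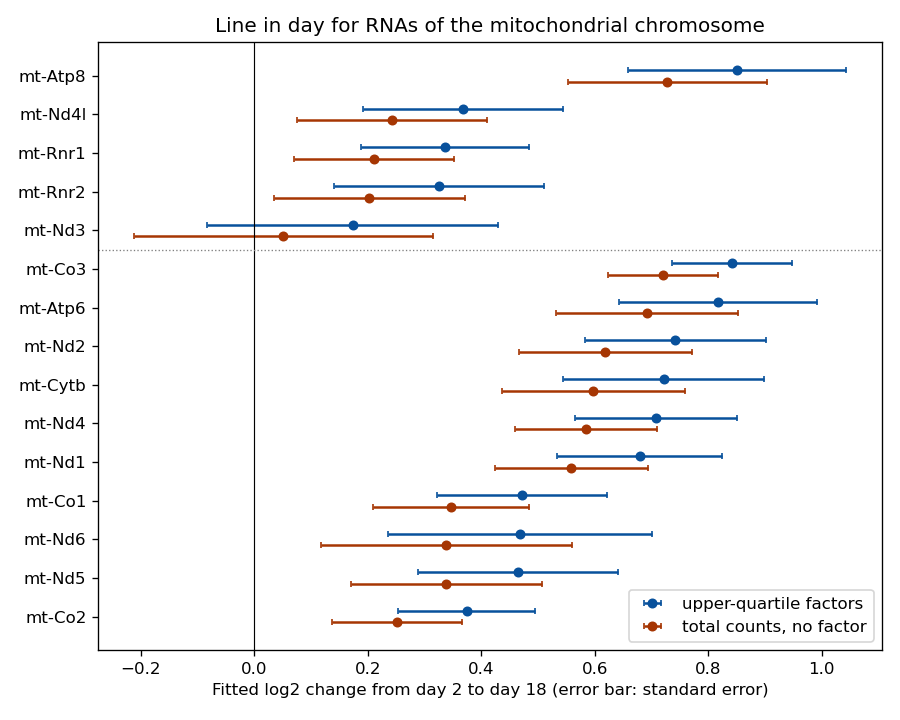
Fitted log2 change from day 2 to day 18 (x axis) with its standard error as bar, for 5 other long RNAs of the mitochondrial chromosome (above the dotted line) and the 10 mRNAs (below), with upper-quartile factors (blue) and total counts (red). All 10 mRNAs lie right of 0 under both scalings, and mt-Co3 has the narrowest error of those near the top.

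The other long RNAs of the same chromosome gave both called and uncalled slopes. mt-Atp8, which shares its mRNA with mt-Atp6, had a log2 change of 0.85 (SE 0.19, edgeR adjusted p = 0.00374), near the 0.82 of mt-Atp6. mt-Nd4l, which shares an mRNA with mt-Nd4, had 0.37 (SE 0.18, adjusted p = 0.102), and mt-Nd3 had 0.17 (SE 0.26, adjusted p = 0.594). These 3 genes are 204, 297 and 348 bases long, close to the fragment length that the study's methods gave to RSEM, and held 3597, 5443 and 13299 counts over all profiles. mt-Nd4l and its identical chromosome 1 copy Gm10222 were given 5443 counts each. The rRNAs had log2 changes of 0.34 for mt-Rnr1 (SE 0.15, adjusted p = 0.0783) and 0.33 for mt-Rnr2 (SE 0.19, adjusted p = 0.161). In the order of the chromosome, the slopes of mt-Atp8, mt-Atp6 and mt-Co3 lie side by side, next to mt-Co2 with the smallest slope of the 10.

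The members were then compared with the rRNAs, by using the summed counts of mt-Rnr1 and mt-Rnr2 in place of the library size. All 10 log2 changes were positive and 4 were called rising, against 19.7% of all genes (55.1% in either direction). These were mt-Co3 (0.52, SE 0.13, edgeR adjusted p = 0.00522), mt-Atp6 (0.49, SE 0.16, adjusted p = 0.025), mt-Nd4 (0.38, SE 0.13, adjusted p = 0.0296) and mt-Nd2 (0.42, SE 0.16, adjusted p = 0.0479). The rRNAs and 9 of the 10 mRNAs are read from the same strand, so the ratio compares RNAs of 1 chromosome within each library.

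The summed counts of the 10 members, of which mt-Co1 supplied the largest part, were also put in the place of the library size. None of the 10 was called by edgeR in this fit, and none had an unadjusted p under 0.05. Each member is part of the sum, so its change against the sum is held small by construction, most of all for mt-Co1. The share of all genes called, 60.2% (16.1% rising), is therefore not a like background for the members. The log2 changes ran from -0.18 for mt-Co2 to 0.29 for mt-Co3, whose adjusted p of 0.103 was the lowest. mt-Co1 supplied 46.1% (day 16) to 51.3% (day 8) of the members' counts. mt-Nd5 supplied 10.8% to 13.3%, mt-Cytb 10.8% to 13.5% and mt-Nd4 9.03% to 10.6%. The remaining 6 each supplied at most 5.44%.

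Relative to its own mean, the part of mt-Nd1 in the sum had the widest range of the 10, with its highest day 1.48 times its lowest. It went from 4.69% on day 2 to 3.69% on day 12, then was 3.92%, 4.45% and 5.44% on days 14, 16 and 18. The SD over 3 profiles was at most 0.0881 percentage points, so this course lay outside the error of sequencing, but day 18 was 1 library. By contrast mt-Nd6 went from 1.15% on days 10 and 12 to 0.869% on day 18. The 5 complex I mRNAs together held 28.1% to 30.5% of the members' counts on every day, and the 3 complex IV mRNAs 53.3% to 57.6%.

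**Figure D4:**
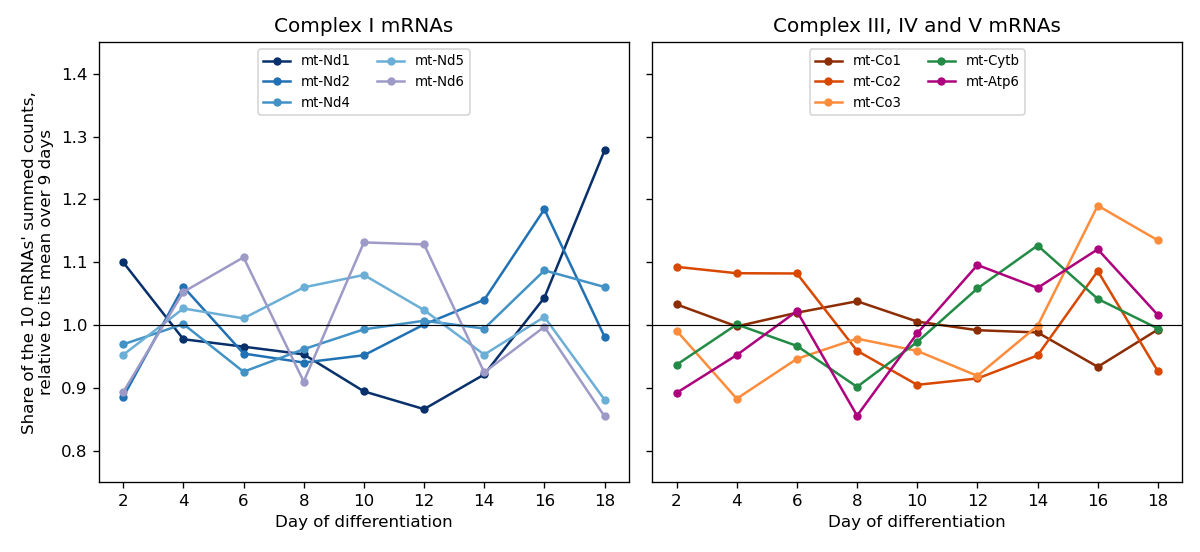
Share of each mRNA in the summed counts of the 10, divided by its mean over the 9 days, against day of differentiation, for the complex I mRNAs (left) and those of complexes III, IV and V (right). mt-Nd1 has the widest range, from its lowest point on day 12 to its highest on day 18, and mt-Co1 the narrowest.

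Across the 9 days the log2 CPM of each member (upper-quartile factors) correlated with that of their sum with Pearson's r from 0.76 for mt-Nd1 to 0.98 for mt-Co1, a description over 9 libraries in which each member is also part of the sum. Between members the highest r was 0.975, of mt-Cytb with mt-Atp6, and the lowest 0.364, of mt-Nd1 with mt-Nd6. mt-Nd5 and mt-Nd6, which overlap on opposite strands, had r = 0.92. Outside the mitochondrial chromosome, the 5 of 7599 genes with a mean of at least 10 TPM whose course was most like that of the sum were Slc41a1 (r = 0.9873), Stx5a (0.9865), Fbxl20 (0.9853), Gtf2i (0.9843) and Klhl24 (0.9824). Slc41a1 encodes a magnesium transporter and Stx5a a syntaxin of the Golgi. Their fitted log2 changes ranged from 0.48 for Stx5a to 2.57 for Klhl24. All of these values share library, depth and scaling.

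Of 75 nuclear genes for subunits of complexes I to V, all tested, 1 rose and 39 fell (26.1% of all genes fell) and 35 were not called, with a median log2 change of -0.44. With total counts and no factor, 47 fell. In complex I, which takes 5 of the 10 mRNAs, 17 of 36 nuclear genes fell and 1, Ndufv3, rose. Ndufb6 had a log2 change of -1.04 and Ndufa12, an accessory subunit, of -0.95 (edgeR, adjusted p = 0.0121 and 0.00186), and Ndufv3 of 0.78 (adjusted p = 0.00192).

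Complex IV, with 3 of the mRNAs, had falls in 7 of 11 nuclear genes and rises in none, led by Cox5a, a subunit on the matrix side (log2 change -1.02, edgeR adjusted p = 0.000391), and Cox7a2 (-0.90, adjusted p = 0.00436). The level of Cox5a was 34.1, 32.1, 33.0, 26.5, 20.0, 18.1, 17.6, 19.9 and 16.5 CPM, so that days 2 to 8 lay above days 10 to 18, opposite to mt-Cytb, mt-Nd2 and mt-Nd4. Complex III had falls in 5 of 9, with Uqcrq (-0.98) and Cyc1, the cytochrome c1 (-0.85), in front. Complex V had falls in 8 of 15, with Atp5l (-0.93) and Atp5g3, a gene for subunit c of its rotor ring (-0.87), in front. In complex II, which has no mitochondrially encoded subunit, 2 of 4 fell, Sdhb (-0.67) and Sdhd (-0.47).

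Of 18 nuclear genes for upkeep and transcription of mitochondrial DNA, 5 fell and none rose, a falling share near the 26.1% of all genes tested, and the list's median log2 change was -0.07. Polrmt, the RNA polymerase of mitochondria, had a log2 change of -0.91 (edgeR, adjusted p = 0.00366), with a level of 9.70, 9.34, 8.88, 10.5, 5.96, 5.74, 5.71, 5.58 and 5.44 CPM by day. Its elongation factor Tefm, listed under the older symbol 1110002N22Rik, had -0.57 (adjusted p = 0.0228).

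Of 20 genes for processing and stability of mitochondrial RNA, 11 fell and 1 rose, with a median log2 change of -0.60, where 26.1% of all genes fell. Pnpt1, a mitochondrial polynucleotide phosphorylase, changed by -1.67 and Tbrg4, an RNA-binding protein of the FASTK family, by -1.47 (edgeR, adjusted p = 0.00074 and 0.000589). Hsd17b10, a subunit of the enzyme that cuts the 5′ ends of tRNAs, rose by 0.29 (adjusted p = 0.0498), a call that was lost with total counts. Of 11 translation factors of mitochondria, 3 fell and 1 rose, again a falling share near that of all genes, with a median log2 change of -0.11. Gfm2, which recycles ribosomes (-0.88), and Gfm1, an elongation factor (-0.84), fell, and Oxa1l, which inserts newly made subunits into the inner membrane, rose by 0.58 (edgeR, adjusted p = 0.0164).

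Of 10 regulators of mitochondrial biogenesis, 3 rose and 3 fell, close to the 28.3% and 26.1% of all genes tested, and their median log2 change was -0.03. The coactivator Ppargc1a (PGC-1α) was at 7, 10, 43, 42, 236, 802, 786, 802 and 661 counts from day 2 to day 18, or 0.166 CPM on day 2 and 14.9 CPM on day 18. Its log2 change was 7.09 with an SE of 1.23 (edgeR, adjusted p = 0.000804). Its step between days 8 and 10 lay on the interval in which mt-Cytb, mt-Atp6, mt-Nd4 and mt-Nd2 reached their higher days. Other genes stepped there too, with Pnpt1 going from 29.2 to 13.8 CPM, Polrmt from 10.5 to 5.96 CPM and Klhl24 from 57.1 to 114 CPM. A link between Ppargc1a and the members was not tested. The related Ppargc1b rose by 1.92 from a low level (0.473 CPM on day 2 and 2.34 CPM on day 18), and the third of the family, Pprc1, had a log2 change of -1.12, from 77.1 to 38.9 CPM. Gabpb1, a subunit of nuclear respiratory factor 2, had -0.61.

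**Figure D5:**
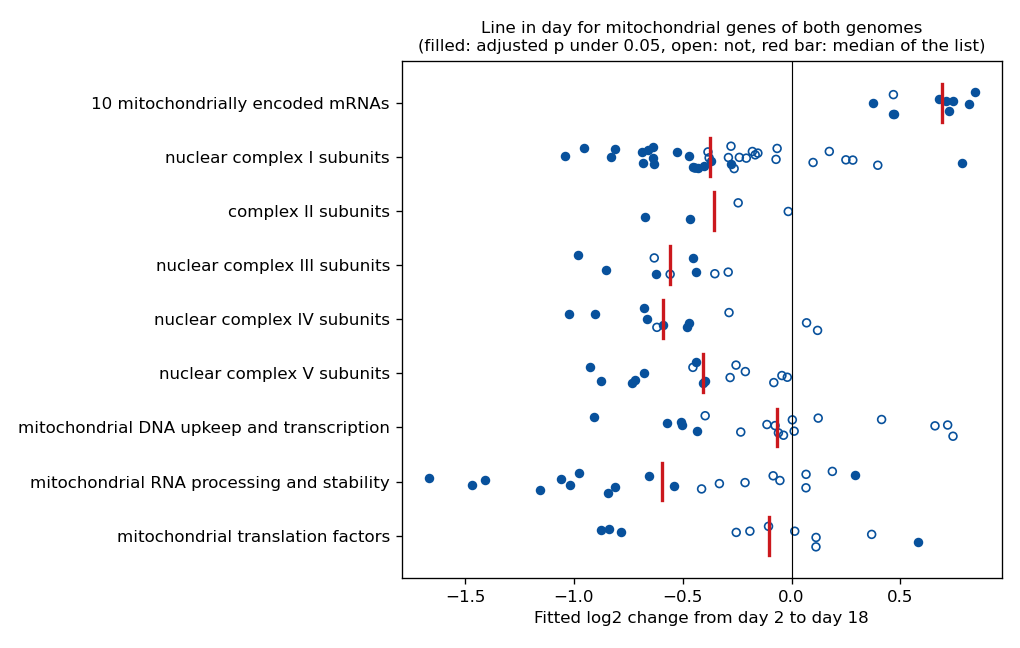
Fitted log2 change from day 2 to day 18 (x axis) for each of the 10 mitochondrially encoded mRNAs (top row) and for nuclear genes of 8 mitochondrial lists. Filled circles have an adjusted p under 0.05 (edgeR) and red bars are list medians. The top row lies right of 0 and the median of each other row left of it. The biogenesis regulators are not drawn because Ppargc1a lies far outside the axis.

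The make-up of the cultures moved along the same days. In bulk RNA, fewer cells of a type and less RNA per cell cannot be told apart. The osteoblast label was checked against its markers. Col1a1 (type I collagen) was at 1526 TPM on day 2 and 4263 TPM on day 18, Bglap (osteocalcin) at 1.24 and 208 TPM, and Alpl (alkaline phosphatase) at 9.13 and 17.6 TPM with a low of 0.467 TPM on day 6. Sp7 (osterix), a transcription factor of the lineage, was highest on day 2 at 32.3 TPM, lowest on day 8 at 2.77 TPM and at 10.6 TPM on day 18. The 8 osteoblast markers summed to 5268 CPM on day 2 and 12621 CPM on day 18, and 6 of them rose. Of 7 macrophage markers, 6 rose, and their sum went from 19.3 to 1301 CPM. Of 5 adipocyte markers, 5 rose, with a sum of 6.24 CPM on day 2, 2.34 CPM on day 6 and 192 CPM on day 18. Among 3 brown adipocyte markers, Ucp1 was at 0 in all libraries, Cidea had at most 5 counts, and Dio2 made up nearly all of a sum that went from 3.31 to 478 CPM. Of 5 osteoclast markers, Calcr and Dcstamp were at 0 in all libraries and 2 rose (sum 30.8 to 152 CPM). Of 4 endothelial markers, 2 rose and 1 fell, with sums of 5.61 to 26.5 CPM. The part of these other cell types in the members' rise was not tested. The largest step of the macrophage sum, from 562 to 1301 CPM, and the step of mt-Nd1 both lay between days 16 and 18. So did the largest step of the brown adipocyte sum, from 250 to 478 CPM. Day 18 was 1 library, and a link between these steps was not tested.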

How the data were processed

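RNA sequencing of 27 profiles at 9 time points was used. Per the labels, cDNA was amplified (NuGEN Ovation) and libraries were built by the TruSeq method. According to the submitters' processing notes, the authors aligned reads with Bowtie 0.12.9 to NCBIM37 transcripts and quantified genes with RSEM 1.2.8. The study's methods name an earlier version of RSEM. The deposited expected counts are RSEM's estimated counts per gene, not normalized, and divide reads that match several transcripts. The TPM values deposited by the authors divide counts by an effective length, which is 0 or near 0 for genes shorter than the fragments. Deposited FPKM values were not used.

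From these, TPM were scaled to the upper quartile of each profile. Expected counts were summed over the 3 profiles of a time point, rounded to whole numbers and fitted by edgeR 4.0.16 in R 4.3.3 (filterByExpr with a minimum count of 10, upper-quartile factors, quasi-likelihood test of a line in day, Benjamini-Hochberg adjustment over all genes tested). The SE is the log2 change divided by the square root of F. The fit was also run on simulated counts with less scatter between libraries (dispersion 0.0196) than the line fit found (0.0581). That run therefore gives no error rate for these data. DESeq2 1.42.0, TMM factors, other totals and filters, and single libraries left out were alternatives. Named genes were the 10 mRNAs, the other long mitochondrial RNAs, the 2 largest called rises and falls of each list, and the 5 genes most like the sum. Other genes named were chosen after their values were seen. The members and lists were chosen with earlier results of these data known. Gene names, positions and sequences came from the GENCODE annotation and genome of NCBIM37, which matched 37205 of 37991 identifiers, and older symbols from RefSeq synonyms. Nuclear copies were found with BLAST 2.17.0, from which the hits on a single nuclear chromosome were left out, so the list of copies is not complete. Correlations and intervals used Python 3.11.15 with scipy 1.17.1.

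Deviations from the time point means were not shared by profiles of like replicate number (mean correlation 0.009 over 14649 genes, range -0.073 to 0.088).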

Additional observations from a re-analysis of the deposited data

How the results depend on the processing

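Each time point was counted as 1 library, so no spread between cultures was measured, and the lines and their p-values treat the 9 days as the error. Of 221 slopes of the 10 mRNAs recomputed under 23 alternatives, 195 kept their direction and their side of the threshold, 23 lost their call, 3 gained one and none changed sign. The lost calls were those of mt-Nd5 (14 alternatives), mt-Co2 (5) and mt-Co1 (4), and the gained ones those of mt-Nd6. The number of the 10 called was 8 with TMM factors, 9 with DESeq2, 6 without a filter on low counts and 6 in the comparison of days 14 to 18 with days 2 to 6. It was 6 to 10 with 1 time point left out and 8 to 9 with 1 replicate number left out. Calls among the nuclear mitochondrial genes, 67 of 134, ranged from 45 without day 2 to 98 with the 27 profiles as separate samples.

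Profiles of like replicate number share the lane number and pair no cultures. With the 27 profiles as separate samples, 10 of the 10 mRNAs and 10882 genes were called with the replicate block, and 10 and 10742 without it, against 8510 for the 9 summed libraries. These p-values are too small, because lanes of 1 library are not separate samples.

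The mean summed share of the 10 mRNAs over the 9 days, 1.84% of counts, was 2.99% of the deposited TPM, 2.41% with mt-Rnr1 and mt-Rnr2 left out of the total and 2.41% with all other mitochondrial genes left out. It stayed between 1.842% and 1.844% with 1 replicate number left out. The division of reads between mt-Atp6 and Gm10925 limits the level of mt-Atp6, and how many mt-Nd6 reads come from the opposite strand was not tested. The addition of Gm10925, the scaling to the members' sum and the scaling to the rRNAs were chosen after seeing the data.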

Other observations

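mt-Rnr2, the large rRNA of the mitochondrial ribosome, stood apart from the 10 mRNAs in how well the lanes matched. Over the 9 time points its chi-square statistic between the 3 lane profiles was 11.1 per degree of freedom, and that of mt-Rnr1 was 1.67, while the 10 mRNAs lay between 0.699 and 1.46. In size the excess was small, with a coefficient of variation over lanes of at most 0.265% for mt-Rnr2, at 1490595 to 4496050 counts per profile. The difference had the same order on every day, with mt-Rnr2 highest in CPM in replicate 1 and lowest in replicate 3. The ratio of mt-Rnr2 to mt-Rnr1 counts ran from 4.74 on day 6 to 5.23 on day 12.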
